A study of Mus musculus with 2 samples.

Results

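Assembly of the liver RNA reads by Cufflinks gave 38016 loci, and 2302 of them (6.06%) carried no gene symbol. These 2302 loci were taken by 1 rule, an empty symbol and a status in the deposited table other than HIDATA, with no filter on FPKM. Each locus had 1 value per library, WT or KO, given as FPKM, the fragments per kilobase of transcript scaled to the number of mapped fragments of the library. Both libraries came from regenerating livers of male C57BL/6 mice 48 hr after partial hepatectomy (PH), the surgical removal of most of the liver. The mice were 4 months old by the sample labels, while the labels' protocol gives a range and the series' text another age. KO mice were PPARbeta-null, that is without PPARβ, a nuclear receptor that fatty acids activate, and WT mice were wild type, with no other allele or agent named for either. With 1 library per genotype there was no error between mice, so no p-value is given and every difference is one between these libraries. Whether a library held 1 mouse or several is not given in the sources used here. The file header places the WT library in lane 2 and the KO library in lane 3, so lane and genotype cannot be told apart.

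A transcript assembler places reads into loci by position and borrows a name only where an annotated gene lies there. Loci left without a name can be long noncoding RNA genes, transcripts that start at a promoter on the opposite strand, RNA that runs past the end of a gene, copies of a messenger RNA that were inserted elsewhere in the genome, or repeated sequence. Reads from a messenger RNA can also be placed on a near-identical copy of its gene, so that the value of a copy and that of its gene need not be independent.

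The sequences that carry the main observations are shown first, read from NCBIM37 (mm9), the build of the deposited table, in the 5′ to 3′ direction. The first 4 are loci that match the transcript of a protein-coding gene of another chromosome or region, and capitals mark the bases that differ from that transcript. The choice was made after seeing their values, because they cover a copy lower in KO like its gene, a copy higher in KO like its gene, a copy listed at 0 in WT beside an even gene and a copy even like its gene. The Fdps copy is chr6:6685999-6686271 read on the minus strand, the Ldha copy chr13:83972113-83972232 on the plus strand, the Map3k7 copy chr10:81894259-81894395 on the plus strand and the Gc copy chr8:51624339-51624493 on the minus strand. The alignment also set 1 base of the Gc transcript against a gap in the copy, which no capital marks.
Fdps copy: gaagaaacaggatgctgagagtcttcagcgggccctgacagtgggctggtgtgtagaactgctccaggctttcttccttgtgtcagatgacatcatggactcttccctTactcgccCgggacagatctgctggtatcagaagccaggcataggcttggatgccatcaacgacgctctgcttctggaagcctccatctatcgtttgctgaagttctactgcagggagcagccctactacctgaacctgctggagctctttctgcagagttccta
Ldha copy: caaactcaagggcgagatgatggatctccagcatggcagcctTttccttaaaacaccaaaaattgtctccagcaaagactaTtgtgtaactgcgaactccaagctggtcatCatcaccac
Map3k7 copy: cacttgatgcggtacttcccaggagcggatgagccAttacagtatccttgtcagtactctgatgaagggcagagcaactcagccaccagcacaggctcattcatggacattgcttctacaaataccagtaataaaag
Gc copy: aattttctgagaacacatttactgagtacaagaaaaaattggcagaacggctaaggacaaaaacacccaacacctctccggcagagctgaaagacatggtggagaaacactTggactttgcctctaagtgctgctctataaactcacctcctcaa

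The locus with the highest FPKM, chr1:124253714-124253819, is printed whole from the plus strand with no base marked. The start of Lockd, a long noncoding RNA gene beside Cdkn1b, is printed because its locus was listed at 0 in KO. It is the RefSeq (GRCm38.p6) window of 300 bases, 250 before and 50 after the gene's start, which matched chr6:134878860-134879159 on the plus strand of NCBIM37, and capitals mark CG dinucleotides. The window held 13 of them, and 37.9% of 32851 RefSeq promoter windows held at least as many.
highest FPKM: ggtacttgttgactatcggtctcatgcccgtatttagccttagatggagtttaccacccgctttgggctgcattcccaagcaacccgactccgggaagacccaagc
Lockd start: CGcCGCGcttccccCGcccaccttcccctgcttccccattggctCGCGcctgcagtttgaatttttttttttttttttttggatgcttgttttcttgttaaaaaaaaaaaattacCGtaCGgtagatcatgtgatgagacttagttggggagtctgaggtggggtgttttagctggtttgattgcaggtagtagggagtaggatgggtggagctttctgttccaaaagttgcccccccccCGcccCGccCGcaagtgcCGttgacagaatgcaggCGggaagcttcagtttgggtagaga

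The 2302 loci lay on 21 chromosomes, and 0 of them on unplaced contigs or the mitochondrial genome. Chromosome 1 held the most, with 217 loci or 10.4% of all loci on it. Chromosome X held 42 loci, 1.64% of its loci. Several loci can share the span that the deposited table gives, as 284 loci did, with up to 9 loci on 1 span. The 2302 loci had 2107 distinct spans. Span lengths ran from 106 to 517026 bases with a median of 1348.5 bases. Of the loci, 130 were shorter than 350 bases, 1456 had 350 to 2500 bases and 716 were longer. The strand of a locus is not given in the table, so every position beside a gene is a position and not a direction of transcription.

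Most loci were close to a gene. The nearest locus with a symbol was at most 10 kb away for 1367 loci (59.4%), of which 701 lay past the 3′ end of the gene and 649 before its 5′ end. A further 148 loci (6.43%) overlapped a locus with a symbol, 681 (29.6%) were 10 to 100 kb away and 106 (4.60%) were farther than 100 kb. The median distance was 5581 bases. In GENCODE vM1, an annotation of the same build, 170 loci overlapped an exon, 8 lay in introns only and 2124 overlapped no annotated gene. Of the annotated gene types under these loci, protein-coding genes were the most frequent with 137 loci, followed by processed transcripts with 30, pseudogenes with 17 and lincRNAs with 12.

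Later annotation named some of them. The promoter windows of RefSeq, matched to NCBIM37 by sequence alone, placed the start of 241 gene symbols inside 266 loci, and 147 of these symbols were given to no other locus of the table. No GENCODE vM1 gene lay at 143 of the 266 loci. The examples that follow were chosen after their values were seen. The locus over the start of Gm43305, chr14:54912046-54915335, had 88.3 FPKM in WT and 71.3 in KO, and its neighbour with the same start symbol had 39.6 and 31.6. The locus over Urml, chr13:68366162-68375508, had 21.3 in WT and 23.9 in KO, and that over Gm27216, chr9:83134155-83148167, had 20.3 and 22.3. These 4 loci were within 2-fold between the libraries. Chaserr is a long noncoding RNA gene beside Chd2, and its locus had 3.28 in WT and 3.95 in KO, also within 2-fold. The locus over 1810008I18Rik, chr7:72947914-72953386, was lower in KO with 22.6 in WT and 9.05 in KO. The locus over Gm8883, chr1:71934481-71943501, was higher in KO with 6.47 in WT and 14.1 in KO.

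Hairpins of microRNAs, small RNAs that pair with messenger RNAs through the seed at bases 2 to 8, lay inside the spans of 19 loci. Several of these loci shared a span. The locus chr15:85531401-85537904 spanned both Mirlet7c-2 and Mirlet7b of the let-7 family and had 0.0413 FPKM in WT and 0.440 in KO. This locus is shown, after its values were seen, for the family's known place in cell growth, and the mature sequences from RefSeq are printed with the seed in capitals. Both share the seed GAGGUAG.
mmu-let-7c-5p: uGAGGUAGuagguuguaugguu
mmu-let-7b-5p: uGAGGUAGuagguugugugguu

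The value is that of the locus whose span holds the hairpins. Whether its RNA covers them or runs on their strand is not known, and mature microRNAs were not measured here. On chr11:86634017-86684587, which holds the hairpin Gm51288, 9 loci shared 1 span. Their FPKM ran from 0.0501 to 0.320 in WT and from 0.218 to 1.03 in KO.

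The labelled tissue was checked on its markers. Of the hepatocyte markers Alb, Apoa1, Ttr, Serpina1a and Fgb, the last 4 summed to 11600 FPKM in WT and 14482 in KO. Alb was among the 21 loci with the status HIDATA and was not used. The 21 measured markers of other cells summed to 458.8 in WT and 355.4 in KO, and 18 of them were lower in KO. The median log2 ratio of KO to WT (0.1 FPKM added) was -0.25 over loci with a symbol whose mean FPKM reached 0.1. Most named loci thus shared this direction. The part of that general shift in the marker counts was not tested. All 4 macrophage markers, all 4 endothelial and all 4 stellate markers were lower in KO, with sums of 42.3 against 24.8, 23.9 against 14.5 and 84.0 against 56.9. The part of these cells in the values of the loci without a symbol was not tested. Fewer cells of a type and less RNA per cell cannot be told apart in bulk liver. Ppard, the targeted gene, had 2.67 in WT and 2.42 in KO over its whole locus, which does not check the deleted part or the labels.

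Most loci without a symbol were weak. The median FPKM was 0.304 in WT and 0.319 in KO, 96 loci were listed at 0 in WT and 78 in KO. The mean of both libraries was under 0.1 for 15 loci, 0.1 to 1 for 1860, 1 to 10 for 349 and at least 10 for 78. All 69 loci shorter than 200 bases had a mean of at least 1. The FPKM of all 2302 loci summed to 21210 in WT and 29066 in KO, but the loci of at least 350 bases summed to only 1936 and 2839. Short loci thus held most of the sum. The estimate divides by the length left after a fragment's own length is taken off, so values of loci shorter than 350 bases are compared between libraries and not with longer loci.

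**Figure D1:**
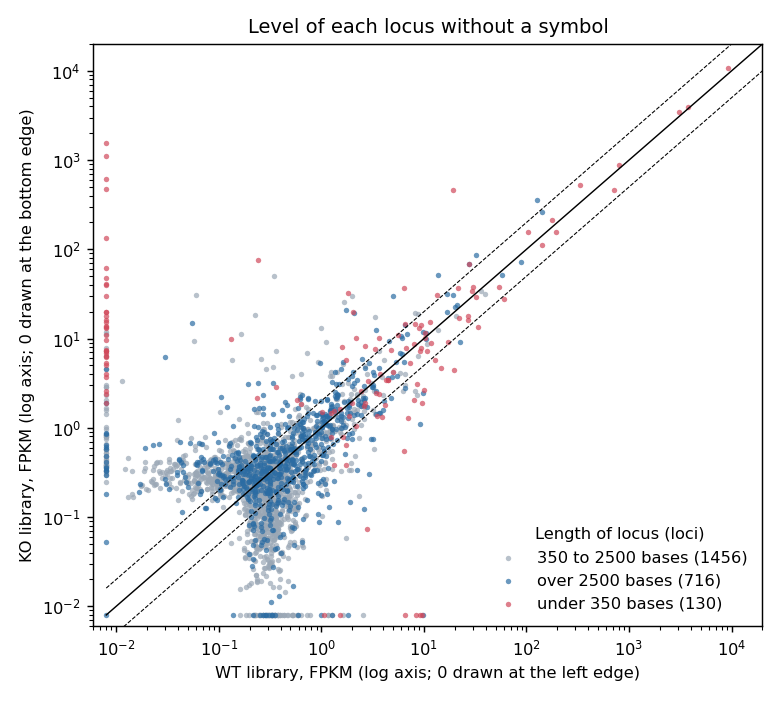
FPKM of each of the 2302 loci without a symbol in the WT library (x axis) and the KO library (y axis), both on log axes, with values listed at 0 drawn at the edges, loci coloured by length, the solid line marking equality and the dashed lines 2-fold. Most loci sit near the median of 0.304 in WT and 0.319 in KO. The highest point, at 9140 and 10720 FPKM, is a locus of 106 bases.

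The values of loci between 350 and 2500 bases could be read as fragments. In loci of 450 to 1500 bases, values under 20 fragments came out whole within 0.1 of a fragment in 94.8% of 849 cases in WT and 96.8% of 835 cases in KO. On a locus of 1 kb, 1 fragment was worth 0.0219 FPKM in WT and 0.0213 in KO. Whole numbers in both libraries were obtained for 1269 of the 1456 loci, and their larger number had a median of 16 fragments and a lowest value of 8. It was 10 to 20 fragments for 66.7% of these loci and under 10 for only 2. A locus was thus listed where at least 1 library had about 10 fragments, which sets a floor under the larger value of each weak locus. Intervals below are exact 95% intervals of the ratio of fragments and cover counting error only, since fragments without molecular identifiers need not be separate molecules.

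Loci without a symbol were called lower or higher in KO where they passed 2-fold on log2(FPKM + 0.1), a scale that understates the change of weak loci. The mean FPKM of both libraries reached 0.1 at 2287 loci. KO values were lower at 456 of them (19.9%) and higher at 478 (20.9%). Over all loci of the table with such a mean, 11.5% were lower and 4.63% higher. The 15166 loci with a symbol had 1544 lower (10.2%) and 330 higher (2.18%). These shares are not of like sets, since a weak locus without a symbol was listed only through a library with about 10 fragments, which favours unequal values, while loci with a symbol were listed at any level. How much of the gap comes from that was not tested. The median log2 ratio of KO to WT was 0.05 for loci without a symbol and -0.25 for loci with one. When KO values were scaled to an equal upper quartile, the loci without a symbol split into 368 lower and 617 higher, and when log2 ratios were centred on loci with a symbol, into 327 lower and 624 higher.

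A mean FPKM of 1 or more was reached by 427 loci without a symbol, of which 58 (13.6%) were lower and 129 (30.2%) higher in KO. The shares over all loci with such a mean were 8.63% lower and 2.78% higher. For 11046 loci with a symbol they were 8.44% and 1.72%, with a median log2 ratio of -0.24 against 0.21 for loci without a symbol. Loci without a symbol had larger shares of higher calls in all 3 classes of mean FPKM, and larger shares of lower calls in the weaker 2. From 0.1 to 1 FPKM 21.4% of loci without a symbol and 14.9% of loci with one were lower, and 18.8% and 3.40% were higher. Lower calls made up 15.5% and 10.8% between 1 and 10 FPKM. In that same class 27.5% of loci without a symbol and 1.57% of loci with one were higher in KO, and at 10 or more FPKM 42.3% of 78 loci and 1.93% of 4667. In the last class the shares of lower loci were 5.13% and 5.14%. The classes are not matched for length, and all 69 loci without a symbol shorter than 200 bases fall in the stronger 2. Of the 130 shorter than 350 bases 40% were higher in KO. A locus listed at 0 in WT also enters a class through its KO value alone. How much of the gap comes from these loci was not tested.

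**Figure D2:**
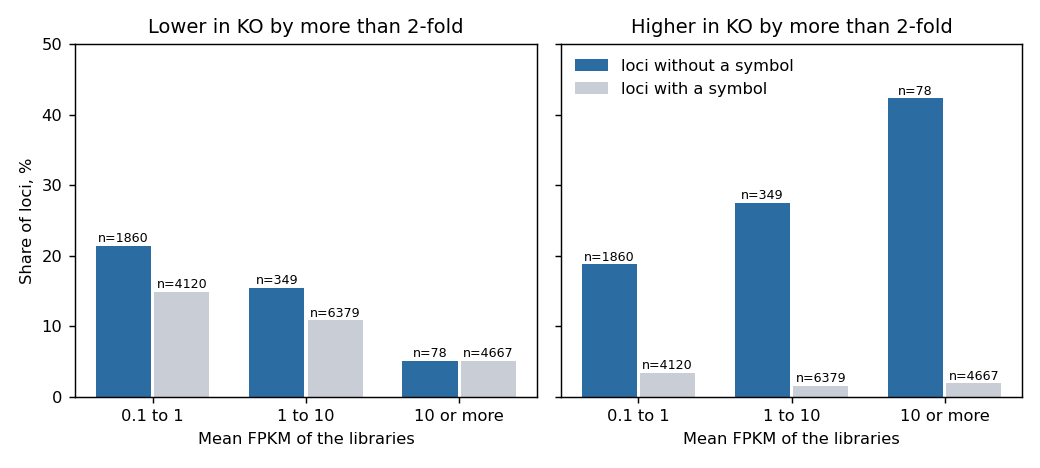
Share of loci (y axis, percent) that were lower (left) or higher (right) in KO by more than 2-fold, by mean FPKM of the libraries (x axis), for loci without a symbol (blue) and with one (grey), with the number of loci above each bar. The share of higher loci without a symbol was 18.8%, 27.5% and 42.3% in the 3 classes, against 3.40%, 1.57% and 1.93% for loci with a symbol. The classes are not matched for length.

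The calls were also counted by length and position. Of 130 loci shorter than 350 bases, 24 (18.5%) were lower and 52 (40%) higher. Of 1447 loci with 350 to 2500 bases, 327 (22.6%) were lower and 289 (19.97%) higher, and of 710 longer loci 105 (14.8%) and 137 (19.3%). Of 1359 loci within 10 kb of a locus with a symbol, 281 (20.7%) were lower and 230 (16.9%) higher, with a median log2 ratio of -0.03. Of 677 loci at 10 to 100 kb, 128 (18.9%) were lower and 204 (30.1%) higher, with a median of 0.24. Among 263 loci that hold a RefSeq start and whose mean FPKM reached 0.1, 43 (16.3%) were lower and 51 (19.4%) higher. Whether any of these classes differs from all loci without a symbol was not tested. In fragments, the interval of the KO to WT ratio lay below 1 for 312 of 1269 loci (24.6%) and above 1 for 271 (21.4%). Over all loci with whole fragments these shares were 25.7% and 20.9%, but only 41 of those loci had a symbol, so they are no separate background. Of the 537 loci with whole fragments that passed 2-fold on log2(FPKM + 0.1), 56 had an interval that held 1.

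Some of the changes ran over a whole stretch of neighbouring loci. Loci with gaps of at most 10 kb were joined into 1353 stretches, of which 901 were a single locus and 170 held at least 3 spans. In 14 of these 170 every locus was lower in KO by more than 2-fold, in 17 every locus was higher, and 10 held calls in both directions. These 31 stretches held 131 loci. Neighbouring loci are not independent, since they can be parts of 1 transcript, and the stretches named here were chosen after their values were seen.

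Past the 3′ end of Insig2, which holds the sterol sensor SCAP in the endoplasmic reticulum, 9 loci between chr1:123186584-123198367 were higher in KO. Their FPKM ran from 0 to 0.0742 in WT and from 0.318 to 0.623 in KO. The 8 loci with whole fragments held 15 fragments in WT and 168 in KO. Insig2 itself had 115.8 in WT and 367.6 in KO, a change in the same direction.

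Before the 5′ end of Ren1, the gene of the protease renin, 3 loci between chr1:135243206-135245294 had 0 fragments in WT and 60, 77 and 50 fragments in KO. In FPKM they were listed at 0 in WT and had 2.34, 2.07 and 2.89 in KO. Against a floor of 3 fragments the KO numbers were at least 20-fold, 25.7-fold and 16.7-fold higher, a bound that leaves out the counting error of the KO number, here and below. With that error the intervals of the ratio began at 15.3, 19.8 and 12.6. Ren1 had 0.108 in WT and 22.3 in KO, higher as well.

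Other stretches were higher in KO beside a gene that stayed within 2-fold. Past the 3′ end of Paqr9, a progestin and adipoQ receptor family member, 7 loci between chr9:95471298-95494507 had log2 ratios of 1.95 to 2.51, and 6 of them held 3 fragments in WT and 107 in KO. Paqr9 had 76.9 in WT and 124.1 in KO. Timd2, a receptor for ferritin, was followed by 4 loci at chr11:46469822-46479853 that had log2 ratios of 2.58 to 3.23, and 3 of them held 0 fragments in WT and 119 in KO. Timd2 had 31.6 in WT and 45.0 in KO. These stretches were picked because all their loci passed 2-fold beside a gene that did not, so the contrast follows from the choice.

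Past the 3′ end of the joint locus of F5 and Selp, which encode coagulation factor V and P-selectin, 5 loci between chr1:166153844-166159244 had FPKM of 0.520 to 6.45 in WT and 3.83 to 37.3 in KO. The highest log2 ratio was 3.86, at the locus farthest from the genes, chr1:166158298-166159244, with 1.68 in WT and 25.8 in KO. The joint locus had 55.2 in WT and 73.2 in KO. In each of these 5 loci, 66.7% or more of the runs of 31 bases occurred at 10 or more places of the genome. The part of read placement in their values was not tested. Before the 5′ end of Lrfn3, 3 loci between chr7:31148186-31153251 held 12 fragments in WT and 101 in KO, while Lrfn3 had 3.57 and 4.05.

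Elsewhere, 4 loci between chr5:23197671-23205139 beside SNORD93, a small nucleolar RNA gene listed at 0, had 0 fragments in WT and 368, 56, 17 and 14 in KO. The first was at least 122.7-fold higher in KO against the floor. Of 5 loci between chr5:105337566-105344232, each listed at 0 in WT, 3 had whole fragments and held 643 in KO. Their nearest loci with a symbol, Abcg3 and Gm3209, were at least 19844 bases away.

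The 14 stretches lower in KO lay at varied distances from loci with a symbol. The farthest, with 8 loci, was at least 112642 bases from the nearest, Gm4889, and stretches closer to a gene are described here. Past the 3′ end of Cyp2c70, a cytochrome P450 that makes muricholic acids, 3 loci between chr19:40213637-40222705 had FPKM of 0.278 to 9.21 in WT and 0 to 0.0480 in KO. The locus with whole fragments, chr19:40213637-40215760, had 30 in WT and 3 in KO. The ratio of KO to WT was 0.0973 with an interval of 0.0190 to 0.313. Cyp2c70 had 407.7 in WT and 63.3 in KO, lower as well.

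Around Sc5d, which catalyses a late step of cholesterol synthesis, 3 loci between chr9:42038065-42087959 were lower in KO. They had 0.273, 0.911 and 2.61 in WT and 0.0569, 0.336 and 0.123 in KO. Sc5d had 352.7 in WT and 65.1 in KO. Between Akr1c19 and Akr1c12, aldo-keto reductase genes, 6 loci between chr13:4256004-4263449 had log2 ratios of -6.41 to -1.28, and 3 of them held 278 fragments in WT and 57 in KO. The joint locus of Akr1c19 and Marcksl1-ps4 had 72.8 in WT and 25.5 in KO, whereas Akr1c12 had 37.7 and 30.8.

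Between Trp53inp1 and Ccne2, the gene of cyclin E2, 4 loci at chr4:11104007-11114619 were lower, and 3 of them held 56 fragments in WT and 11 in KO. Ccne2 had 5.42 in WT and 0.298 in KO, while Trp53inp1 had 37.3 and 24.3. Downstream of Rad18, a ubiquitin ligase of DNA damage tolerance, 3 loci at chr6:112563100-112567605 held 83 fragments in WT and 16 in KO, and Rad18 had 3.43 and 0.613. Near the histone H4 genes Hist1h4j and Hist1h4k, 5 loci at chr13:21831925-21838202 held 116 fragments in WT and 24 in KO. Hist1h4j had 0.215 in WT and 0.303 in KO, and Hist1h4k had 1.21 and 0.585, so the histone loci did not share the size of the change beside them.

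Between Adrb3 and Eif4ebp1, a repressor of cap-dependent translation, 8 loci at chr8:28343420-28361293 had log2 ratios of -2.42 to -1.44, and 5 of them held 93 fragments in WT and 9 in KO. Adrb3 had 1.75 in WT and 0.289 in KO, and Eif4ebp1 had 33.4 and 17.3. Before the 5′ end of Bmf, a BH3-only cell death gene, 4 loci at chr2:118380367-118391380 had FPKM of 0.341 to 6.60 in WT and 0 to 0.544 in KO, while Bmf had 0.601 and 0.269. Past 4930547N16Rik, 2 of 3 loci held 46 fragments in WT and 1 in KO, and the gene had 1.97 and 0.00588.

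**Figure D3:**
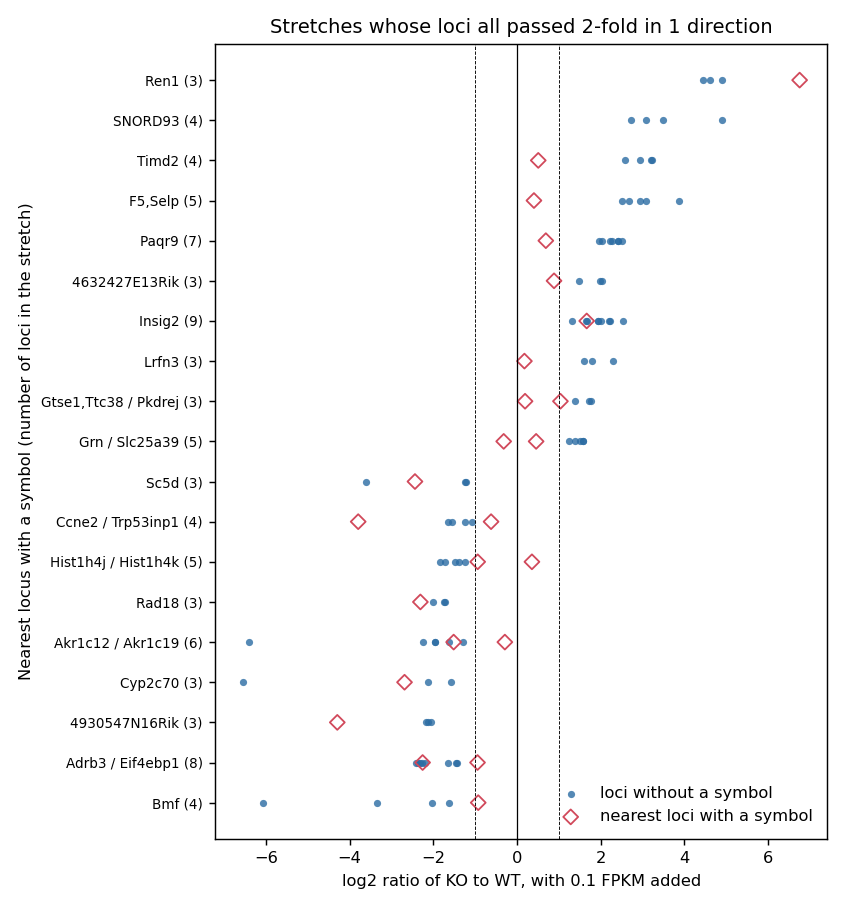
Log2 ratio of KO to WT (x axis, with 0.1 FPKM added) of each locus without a symbol (blue points) in the stretches within 10 kb of a gene whose loci all passed 2-fold in 1 direction, beside the nearest loci with a symbol (red diamonds, drawn where their mean FPKM reached 0.1), with dashed lines at 2-fold. The 9 loci beside Insig2 and the 3 beside Ren1 lay on the same side as the gene. The 7 beside Paqr9 and the 4 beside Timd2 passed 2-fold, as all loci shown do by choice, where the gene did not.

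Single loci with the largest ratios were taken among those whose mean FPKM was 1 or more. Of the 10 lowest in KO, the locus over the start of Lockd, chr6:134879055-134901492, had 9.75 in WT and was listed at 0 in KO. It lay 3524 bases past the 3′ end of Cdkn1b, the gene of the cell cycle inhibitor p27, which had 9.28 in WT and 5.04 in KO. The Lockd locus thus stood near the level of Cdkn1b in WT only. The locus chr17:14234882-14235057 had 9.55 in WT, chr19:40222535-40222705 beside Cyp2c70 had 9.21, and chr13:4260101-4260284 beside Akr1c19 had 8.39, and all 3 were listed at 0 in KO. These 3 loci were shorter than 200 bases.

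Of the other 6, chr2:118382810-118382996 had 6.60 in WT and was listed at 0 in KO, and chr2:118382466-118382653 had 6.45 and 0.544, both beside Bmf. The locus chr9:42082897-42087959 upstream of Sc5d had 2.61 in WT and 0.123 in KO, 21.3-fold lower. The neighbours chr8:34824215-34825239 and chr8:34825354-34825724 lay more than 10 kb from Gsr and 1700104B16Rik. The first of them had 2.32 in WT and 0.171 in KO, and the second had 28 fragments in WT and 0 in KO, at least 9.33-fold lower against the floor. The last, chr3:69768900-69769186, matched the Insig1 transcript and had 2.79 in WT and 0.0743 in KO.

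The 10 loci with the largest ratio in the other direction were all 108 to 174 bases long and all listed at 0 in WT. Their KO values ran from 30.1 to 1541. The highest, chr13:20750356-20750509, had 1541 in KO, followed by chr5:65225096-65225203 with 1117, chr6:140564438-140564551 with 610.3 and chr17:40802845-40802960 with 478.5. Every 31-base word of the first and the second occurred at 10 or more places of the genome, and the median number of places was 160 and 219. How reads with several placements were shared out is not given in the sources used here, and its part in these values was not tested. Klf3, 825 bases from the second, had 19.98 in WT and 14.3 in KO, and Aebp2, 6419 bases from the third, had 10.4 and 8.05.

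Among loci with whole fragments, further extremes were chosen after their values were seen. The locus chr7:14916797-14918910, far from the nearest gene Sult2a6, had 124 fragments in WT and 0 in KO, at least 41.3-fold lower. The locus chr8:42301342-42303304, 189 bases before the 5′ end of Pcm1 and Gm16348, had 43 in WT and 0 in KO, at least 14.3-fold lower, and the joint gene locus had 6.39 and 2.38 FPKM. The locus chr13:47117369-47118091 before Kdm1b, the gene of a histone demethylase, had 100 in WT and 18 in KO, while Kdm1b had 7.56 and 5.99. The locus chr4:70327137-70328917 had 0 in WT and 53 in KO, at least 17.7-fold higher. In these loci 81.2% or more of the 31-base words occurred once in the genome.

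Calls near 2-fold are shown by their neighbours. Just inside lower were chr4:148811743-148812417 with 2.63 in WT and 1.25 in KO and chr4:144550264-144558244 with 1.88 and 0.863, and just outside were chr16:8861178-8861481 with 2.18 and 1.04 and chr9:44472689-44480355 with 4.07 and 2.00. Just inside higher were chr6:121087538-121105299 with 1.49 and 3.09 and chr19:37329169-37338621 with 2.02 and 4.17, and just outside were chr3:47286447-47288827 with 3.68 and 7.29 and chr8:3995069-3995244 with 5.57 and 11.0. These pairs hardly differ from each other across the threshold.

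Most loci with the highest FPKM were short, and those at the top of the list were near even between the libraries. The highest, chr1:124253714-124253819, whose 106 bases are printed above, had 9140 in WT and 10720 in KO. Next were chr1:104524783-104524916 with 3793 and 3934 and chr16:17222407-17222549 with 3087 and 3427. These 3 loci lay in no annotated gene, and ribosomal RNA, a usual source of such reads, was not compared with them here. The fourth, chr6:49186445-49186620, had 805.3 in WT and 887.5 in KO and matched a noncoding part of the Lars2 transcript at 98.8% identity. Lars2, the mitochondrial leucyl-tRNA synthetase gene, had 70.4 and 80.3 on its own locus, which is longer, so that the levels of the pair are not compared.

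Further down the list, chr18:34206747-34206869 had 713.1 in WT and 461.4 in KO, chr6:20874585-20874699 had 334.6 and 523.2, and chr2:75475978-75481105 had 127.9 and 357.8. The last is the only 1 of the 10 longer than 350 bases, and it was 2.80-fold higher in KO. The other 3 of the 10 were the short loci listed at 0 in WT that are given above.

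Among loci over annotated exons, chr16:35981744-35981909 at Gm15564 and Kpna1 had 178.4 in WT and 215.2 in KO, and it too matched the Lars2 transcript, at 98.2% identity. The locus chr19:5795704-5802664 over Malat1, a nuclear long noncoding RNA, had 58.0 in WT and 51.3 in KO, so a well known noncoding RNA was here without a symbol. The locus chr15:82465980-82537827 over Cyp2d37-ps had 16.7 in WT and 31.8 in KO, 1.90-fold higher. In introns only, chr12:21994422-21994542 had 103.0 in WT and 156.8 in KO, chr17:36137415-36138068 had 0.414 and 0.620, and chr12:21020931-21023525 in Asap2 had 0.508 and 0.318. None of these 6 passed 2-fold.

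Copies of protein-coding transcripts formed a group of 72 loci. A locus was counted as a copy where at least 80% of it matched transcripts of at most 2 genes at 95% identity or more and the gene lay elsewhere. The 72 copies matched 64 genes with a median identity of 98.5%, 70 of them lay in no annotated gene, and 41 were shorter than 350 bases. A median of 29.1% of their 31-base words occurred once in the genome, and the part of read placement in their values was not tested. Of the 72, 10 were lower and 22 higher in KO by more than 2-fold, where 11.5% and 4.63% of all loci, and 19.9% and 20.9% of all loci without a symbol, were called, and 41 had the same sign of log2 ratio as their gene. The copies named here were chosen after their values were seen.

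Several copies were lower in KO together with their gene, and those of Fdps and Insig1 are given first. The Fdps copy printed above, from the gene of farnesyl diphosphate synthase in the mevalonate pathway, had 6.94 in WT and 1.302 in KO and differed from the transcript at 2 of 273 bases. Fdps had 295.4 in WT and 53.9 in KO. The Insig1 copy chr3:69768900-69769186 had 2.79 and 0.0743, and Insig1, a partner of Insig2 in sterol sensing, had 204.8 and 31.3.

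The copy of Gstm3, a glutathione S-transferase gene, at chr10:34618074-34618615 had 174 fragments in WT and 49 in KO. Gstm3 had 1872 in WT and 194.7 in KO, a larger ratio than its copy. A copy of Ptma, the gene of prothymosin alpha, at chr3:124088541-124089599 had 6.30 and 2.56, beside 243.0 and 100.1 for the gene. In FPKM the Gstm3 copy had 8.53 in WT and 2.33 in KO. The copies of Gstm3 and Ptma thus had far lower values than their genes in both libraries. The copies of Fdps and Insig1 are shorter, so their levels are not compared with those of their genes.

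Both copies of Ldha, the gene of the lactate dehydrogenase A subunit, were higher in KO. The printed copy chr13:83972113-83972232 had 19.1 in WT and 462.4 in KO, and its neighbour chr13:83972310-83972600 had 1.80 and 32.8. Ldha had 548.5 in WT and 1133 in KO. The copies were thus 24.2-fold and 18.2-fold higher and the gene 2.07-fold higher. The printed copy differed from the transcript at 3 of 118 aligned bases.

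Other copies were far apart between the libraries while the gene was even. The Map3k7 copy printed above was listed at 0 in WT and had 48.03 in KO, while Map3k7, a kinase gene of inflammatory signalling, had 9.66 and 9.75. The copy of 1500003O03Rik at chr16:32410540-32411028 had 1 fragment in WT and 171 in KO, a ratio with an interval of 29.3 to 6577, while the gene had 119.5 and 134.5. The copy of Odc1, the gene of ornithine decarboxylase in polyamine synthesis, at chr5:96404361-96404854 had 6 fragments in WT and 88 in KO, while Odc1 had 56.6 and 38.9. In all, 11 copies were listed at 0 in WT with KO values of 1.91 to 48.03, and the log2 ratios of their genes ran from -0.86 to 0.32. In the reverse direction, 2 copies were listed at 0 in KO.

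Even copies of even genes were found as well. The Gc copy, from the gene of the vitamin D binding protein, had 193.3 in WT and 155.5 in KO, beside 2537 and 2486 for Gc. Of 14 copies of ribosomal protein genes, 1 was lower and 3 were higher in KO by more than 2-fold, and the other 10 were within it.

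**Figure D4:**
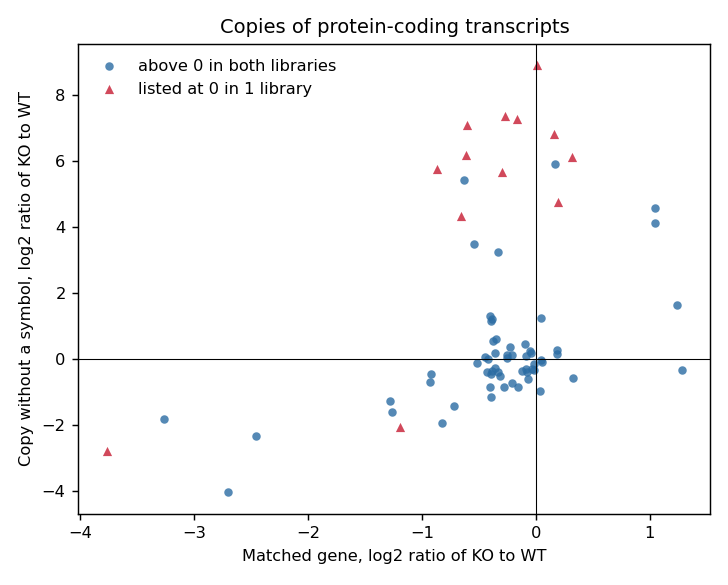
Log2 ratio of KO to WT of 72 copies of protein-coding transcripts (y axis) against that of the matched gene (x axis), with triangles for copies listed at 0 in 1 library. The 11 triangles at the top are copies listed at 0 in WT whose genes had log2 ratios of -0.86 to 0.32, and the copies of Fdps, Insig1 and Gstm3 lie at the lower left.

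Loci beside genes of liver pathways were counted from gene lists, where their mean FPKM reached 0.1 and they lay at most 10 kb from the gene or overlapping it. The shares over all loci with such a mean were 11.5% lower and 4.63% higher. Over all 2287 loci without a symbol the shares were 19.9% lower and 20.9% higher, and the median log2 ratio was 0.05. With few loci beside each list, the counts describe these places only, and some of the loci lay closer to another gene than to the gene of the list.

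Beside cytochrome P450 genes of families 2 and 3, 7 of 21 loci were lower and 0 were higher, with a median log2 ratio of -0.85. The 7 lay in runs of neighbouring loci beside only 2 genes, 5 of them beside Cyp2b10 and 2 beside Cyp2c70, and loci beside the other 6 genes were within 2-fold. Cyp2b10, a target of the xenobiotic receptor CAR, had 7 loci beside it with FPKM of 0.683 to 1.07 in WT and 0.253 to 0.545 in KO. The gene had 35.1 and 19.3. The locus with the highest mean FPKM of this list, beside Cyp2d22, was even with 10.3 in WT and 10.0 in KO.

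Beside S phase and replication genes 4 of 5 loci were lower and 1 was higher, with a median of -1.22. The 4 lay beside Ccne2 and Prim1, a DNA primase subunit gene with 9.97 in WT and 1.91 in KO. The locus upstream of Rrm2, the gene of the small subunit of ribonucleotide reductase, went the other way with 0.163 in WT and 0.789 in KO, while Rrm2 had 47.5 and 1.03. No locus of this kind lay beside a gene of mitosis, of the circadian clock or of immune and plasma cells, or beside the known long noncoding RNAs of the list.

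Beside fatty acid synthesis genes 1 of 4 loci was lower, the 1 beside Scd1, a stearoyl-CoA desaturase gene, with 0.300 in WT and listed at 0 in KO. The highest locus of the list, before Elovl6, was even with 0.630 and 0.816, although Elovl6 had 23.5 and 7.14. Beside bile acid genes 3 of 8 loci were lower and 1 was higher, with a median of -0.08. The highest of them, on the span chr4:49456477-49494293 near Baat, had 1.64 in WT and 1.34 in KO.

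In the other direction, 2 of 3 loci beside targets of the PPAR receptors had higher KO values past 2-fold, and the median log2 ratio was 1.15. A locus beside Acaa1a, a peroxisomal thiolase gene, had 0.447 in WT and 1.11 in KO, and a locus beside Fabp1, the liver fatty acid binding protein, had 0.0270 and 0.209. Acaa1a had 70.7 and 111.0, and Fabp1 had 835.3 and 2743. Both loci lay on the side of their gene.

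Beside acute phase genes 2 of 6 loci were higher and 0 lower, with a median of 0.75. They lay beside Crp and Hp, the genes of C-reactive protein and haptoglobin. The highest locus of the list, before Itih4, was even with 0.844 and 0.689. Beside gluconeogenesis genes 1 of 4 loci was higher, with 0.194 in WT and 0.676 in KO. It lay 3059 bases from Fbp1, which was even with 626.1 and 635.5, and closer, at 880 bases, to Fbp2, which had 0.0263 and 0.189. The highest locus of the list, beside Pck1, had 0.583 and 0.950. Beside genes of plasma proteins 0 of 4 loci passed 2-fold in either direction, and the locus beside Gc had 0.315 and 0.353. Beside Alas2, of the heme list, 1 of 3 loci was lower, and the highest had 0.329 and 0.286.

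Over all loci, ratios followed those of the nearest gene in part. For 1091 loci within 10 kb of a locus with a symbol, where the mean FPKM of each reached 0.1, Spearman's rho of the log2 ratios was 0.41 and Pearson's r 0.33. For 419 loci at 10 to 100 kb rho was 0.17 and r 0.07. The 111 loci that overlapped a locus with a symbol had a rho of 0.25 and an r of 0.46. The 39 loci farther than 100 kb had -0.11 and -0.17. These are descriptions over loci, which share both libraries and in part the same gene. Past the 3′ end of the gene rho was 0.45 for 569 loci, and before its 5′ end 0.36 for 517.

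Within 10 kb, 92 loci had a nearest gene that was itself lower in KO by more than 2-fold, and 54 of them (58.7%) were lower and 6 higher. These loci lay beside 66 distinct gene loci. Of 54 loci beside a gene higher in KO, 29 (53.7%) were higher and 7 lower. Of 945 loci beside a gene within 2-fold, 175 (18.5%) were lower and 139 (14.7%) higher. Calls were thus a smaller share of the loci beside genes within 2-fold than of those beside called genes.

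**Figure D5:**
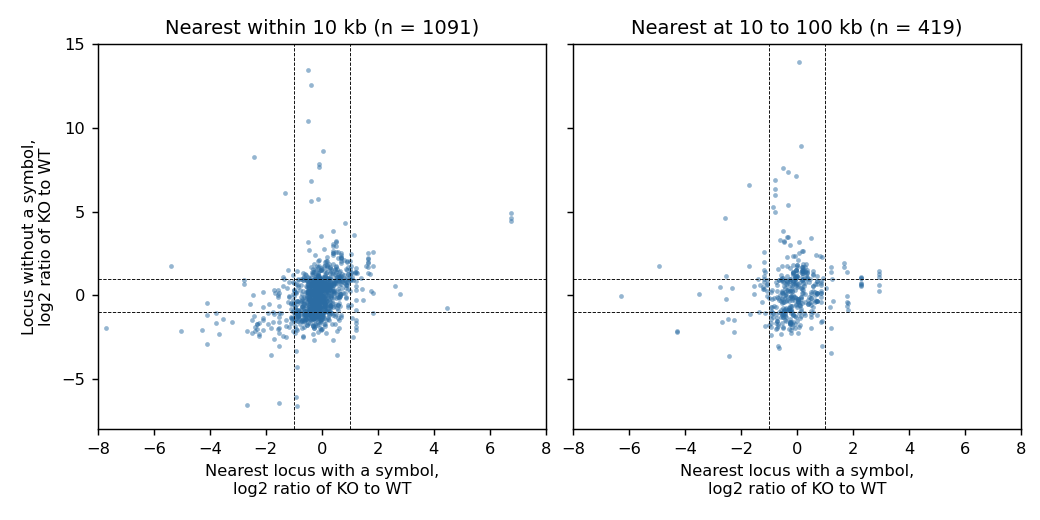
Log2 ratio of KO to WT of each locus without a symbol (y axis) against that of the nearest locus with one (x axis), for distances up to 10 kb (left) and of 10 to 100 kb (right), with dashed lines at 2-fold. The 1091 points on the left rise together with a Spearman's rho of 0.41, and the 419 on the right have 0.17.

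Repeated sequence went with the calls among the stronger loci. Among 1784 loci of up to 5 kb, a median of 92.5% of the 31-base words occurred once in the genome and 2.51% at 10 or more places. Where the mean FPKM was 1 or more, the median share of such repeated words was 56.9% in 38 lower loci, 56.2% in 101 higher loci and 2.89% in 151 loci within 2-fold. Of 179 loci with at least 50% repeated words, 44 (24.6%) were lower and 66 (36.9%) higher, against 255 (19.6%) and 247 (19.01%) of 1299 loci with under 10%. At a mean FPKM of 1 or more the median length was 306 bases in lower loci, 325 in higher loci and 594 within 2-fold. Repeated sequence and length were not separated, and the part of read placement in these calls was not tested.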

How the data were processed

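Hepatic RNA of 1 WT and 1 KO liver library was prepared with the TruSeq RNA kit and sequenced on a HiSeq 2000. Per the labels' processing notes and the study's methods, the authors aligned reads with TopHat 2.0.0 to NCBI37 (mm9), assembled them with Cufflinks 1.3.0 and estimated 1 deposited FPKM per locus and library with Cuffdiff. The labels describe paired end reads and the methods single end reads. Which annotation gave the gene symbols is not given in the sources used here. The deposited table also holds the authors' own fold changes, test statistics, p-values and q-values, which were not used.

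Loci with an empty symbol were kept where the status was not HIDATA, which 21 loci of the deposited table carried. They, the gene lists and the tests were chosen with earlier results of these data known. Nothing was tested, since there are no replicates. Calls needed 2-fold on log2(FPKM + 0.1) and a mean FPKM of at least 0.1. Fragments were recovered from the steps of low FPKM values, with 172.7 (WT) and 170.9 (KO) bases taken off the length and 1 fragment on a 1-kb locus worth 0.0219 and 0.0213 FPKM, which is the depth used. Distances are between the nearest ends. Sequence came from NCBIM37, with words of 31 bases counted on both strands, and copies from BLAST 2.17.0 against GENCODE vM1 transcripts.

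Loci were described one by one where they were the 10 highest by mean FPKM, the 10 with the largest ratio each way at a mean of at least 1, the highest beside each gene list, the 2 on each side of 2-fold each way, or the 3 highest of each annotation class. Others are named as chosen after their values were seen. Ratios of the loci near list genes use the same pseudocount. The loci beside 1 of the gene lists are not reported here as a list. The tools were bedtools 2.31.1, pysam 0.24.0, scipy 1.17.1, pandas 2.3.3 and numpy 2.4.6 under Python 3.11.15, and the steps were tested on simulated data. Alternatives covered the pseudocount, the filter, the fold, the scaling and which loci enter.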

Additional observations from a re-analysis of the deposited data

How the results depend on the processing

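No paired analysis was possible because each genotype had 1 library, and for the same reason no library could be left out in turn. The 456 loci lower and 478 higher in KO became 47 and 123 with a pseudocount of 1 FPKM, 58 and 129 at a mean FPKM of at least 1, 694 and 751 at 1.5-fold, and 93 and 167 at 4-fold. These counts move by construction, since fewer loci enter or a smaller or larger ratio is needed. Among loci of up to 5 kb with under 50% repeated words, an alternative chosen after seeing the data, 310 were higher. The median log2 ratio of 0.05 became 0.21 at a mean of at least 1, 0.27 with KO scaled by 1.21 to equal upper quartiles of the loci with a symbol, and 0.29 when centred on their median. The Spearman correlation of 0.32 with the nearest locus with a symbol, at any distance, became 0.19 where both had a mean of at least 1, and the cause was not tested. The other counts stayed within 1.5 times, among them 1 locus per span (428 lower and 422 higher) and loci of at least 350 bases (432 and 426), both chosen after seeing the data, and 0 loci lay on unplaced contigs. Of 51 loci described by the rule, 39 stayed on the same side of 2-fold under every alternative run. No called locus changed direction, while 3 loci within 2-fold had a log2 ratio that changed from negative to positive under both scalings. Depth limits most loci, whose larger fragment number had a median of 16.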
